A study of Mus musculus with 18 samples.

Results

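The genes described here are 45 genes of mitochondrial fuel oxidation, listed by name. They cover the pyruvate dehydrogenase complex, the tricarboxylic acid (TCA) cycle, the respiratory chain, the malate-aspartate shuttle, fatty acid oxidation and the mitochondrial DNA factor Tfam. They were followed in recently activated mouse CD8+ T cells, as 45 of the 18194 genes that the arrays measured. All 45 had a probe set annotated to that symbol alone, and the brightest one over the 18 arrays was taken for each gene. The cells were OT-I T cells from male mice, which all carry a transgenic receptor for an ovalbumin peptide. Every group was primed for 48 hours with peptide-pulsed splenocytes, re-purified and cultured for another 24 hours. Of the 6 groups, 5 received a single recombinant mouse cytokine at 100 ng/ml, namely IL-2, IL-4 or IL-7, IL-15 alone or IL-21 alone, and the last received plain media with no cytokine (media control). Each group had 3 biological replicates. RNA from all cells of a culture was measured on 1 Affymetrix array, so fewer cells of a type and less RNA per cell cannot be told apart.

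Pyruvate from glycolysis enters mitochondria and is turned into acetyl-CoA by the pyruvate dehydrogenase complex. The TCA cycle oxidises acetyl-CoA and hands electrons to complexes I and II of the inner membrane, from where they pass through complex III, cytochrome c and complex IV to oxygen. Long-chain fatty acids feed the same cycle after Cpt1a, at the outer membrane, links them to carnitine for entry. Activated T cells are known for high glycolysis alongside respiration, and memory CD8+ T cells for their use of fatty acid oxidation. The receptors of all 5 cytokines share the common gamma chain.

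Levels are log2 values per probe set after quantile normalization of the 18 arrays, and a change is the difference of 2 group means on that scale, so that 1 is a doubling. As deposited, replicate 3 of IL-2, IL-15 and media control had medians of 4.47 to 4.52 on the log2 scale, below the 5.76 to 5.84 of the other 15 arrays. RNA was extracted with RNeasy in replicates 1 and 2 and with TRIzol and Direct-zol in replicate 3, so that kit and replicate 3 cannot be told apart. The log2 difference between the actin control probe sets of the 3′ and 5′ ends was 0.59 to 0.68 on those 3 arrays and 0.19 to 0.39 on the others. Its part in the results was not tested. All 9 measured T cell genes, Cd3e, Cd8a and Cd8b1 among them, lay above the background level of 6.88, the 95th percentile of 29 genes of other tissues, and 6 of the 9 fell under IL-2 and 2 under IL-4. Of the markers of other cells, 2 of 9 B cell genes, 2 of 9 myeloid genes, 2 of 8 dendritic cell genes, 1 of 4 CD4 T cell genes, 0 of 4 NK cell genes and 0 of 4 red cell genes did. The mean log2 level of the B cell list was 5.68 to 6.13 under IL-2, 5.93 to 6.07 under IL-4, 5.83 to 5.98 under IL-7, 6.06 to 6.23 under IL-15 and 5.88 to 6.01 under IL-21, against 6.23 to 6.39 in media control, so that it lay wholly below media control under all of them but IL-15. That of the myeloid list was 4.95 to 5.24 under IL-2, wholly below the 5.38 to 6.37 of media control, and overlapped media control under the others. The NK cell list, with all its genes under background, was 4.51 to 4.54 under IL-21, 4.01 to 4.17 under IL-2 and 4.09 to 4.11 under IL-4, against 4.22 to 4.37 in media control. The part of such cells in the results below was not tested.

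Most changes among the 45 genes were small, the genes called were spread over several roles, and how many were called depended on whether the replicate number was in the fit. Under IL-2, transcripts of the pyruvate dehydrogenase subunits Dlat and Dld, of the TCA cycle enzyme subunit Idh3a and of cytochrome c (Cycs) were 1.56-fold to 1.76-fold those of media control. Cpt1a, the entry enzyme of fatty acid oxidation, fell under IL-2, IL-4, IL-7 and IL-21. Acadl, which encodes long-chain acyl-CoA dehydrogenase, was 3.95-fold higher under IL-21. The other genes mostly stayed close to media control: the change was under 0.5 on the log2 scale in 39 of 45 genes under IL-2, 43 under IL-4, 44 under IL-7, 45 under IL-15 and 42 under IL-21. Their median change was 0.07 under IL-2, 0.07 under IL-4, 0.06 under IL-7, 0.03 under IL-15 and 0.02 under IL-21. The median over all genes tested was 0.01, 0.00, -0.02, -0.01 and -0.01 in the same order.

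Each cytokine was compared with media control to ask which of these transcripts the cytokine changed (limma, two-sided, p adjusted by the Benjamini-Hochberg method over all 18194 genes of the comparison, threshold 0.05). Under IL-2, 4 of 45 genes rose and 2 fell, while 7.83% of all genes rose and 8% fell. Under IL-4, 1 rose and 3 fell (3.98% and 5.1% of all genes). Under IL-7, 0 rose and 1 fell (0.934% and 0.747% of all genes), and 4 of the 45 genes and 14.2% of all genes had an unadjusted p under 0.05. Under IL-15, 0 rose and 0 fell, as in 0% of all genes in either direction, where 390 of all genes (2.14%) and 1 of the 45 had an unadjusted p under 0.05. Under IL-21, 2 rose and 3 fell (3.39% and 3.29% of all genes). These shares lay near those of all genes.

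Samples with the same replicate number belong together, and a fit with that number as a block called more genes among the 45 and among all genes. Under IL-2, 11 rose and 7 fell in that fit, beside 15.5% and 15.1% of all genes. Under IL-4, 6 rose and 4 fell, beside 12.9% and 12.9% of all genes. Under IL-7, 3 rose and 4 fell (8.34% and 8.01% of all genes). Under IL-21, 6 rose and 6 fell (10.6% and 10.5% of all genes). Under IL-15, 0 rose and 0 fell (0% of all genes), and 2 of the 45 and 1566 of all genes had an unadjusted p under 0.05. On the values as deposited, without quantile normalization, limma called 0 of the 45 genes in any comparison, and 0 to 5 in each comparison had an unadjusted p under 0.05, beside 0.066% to 7.48% of all genes.

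**Figure D1:**
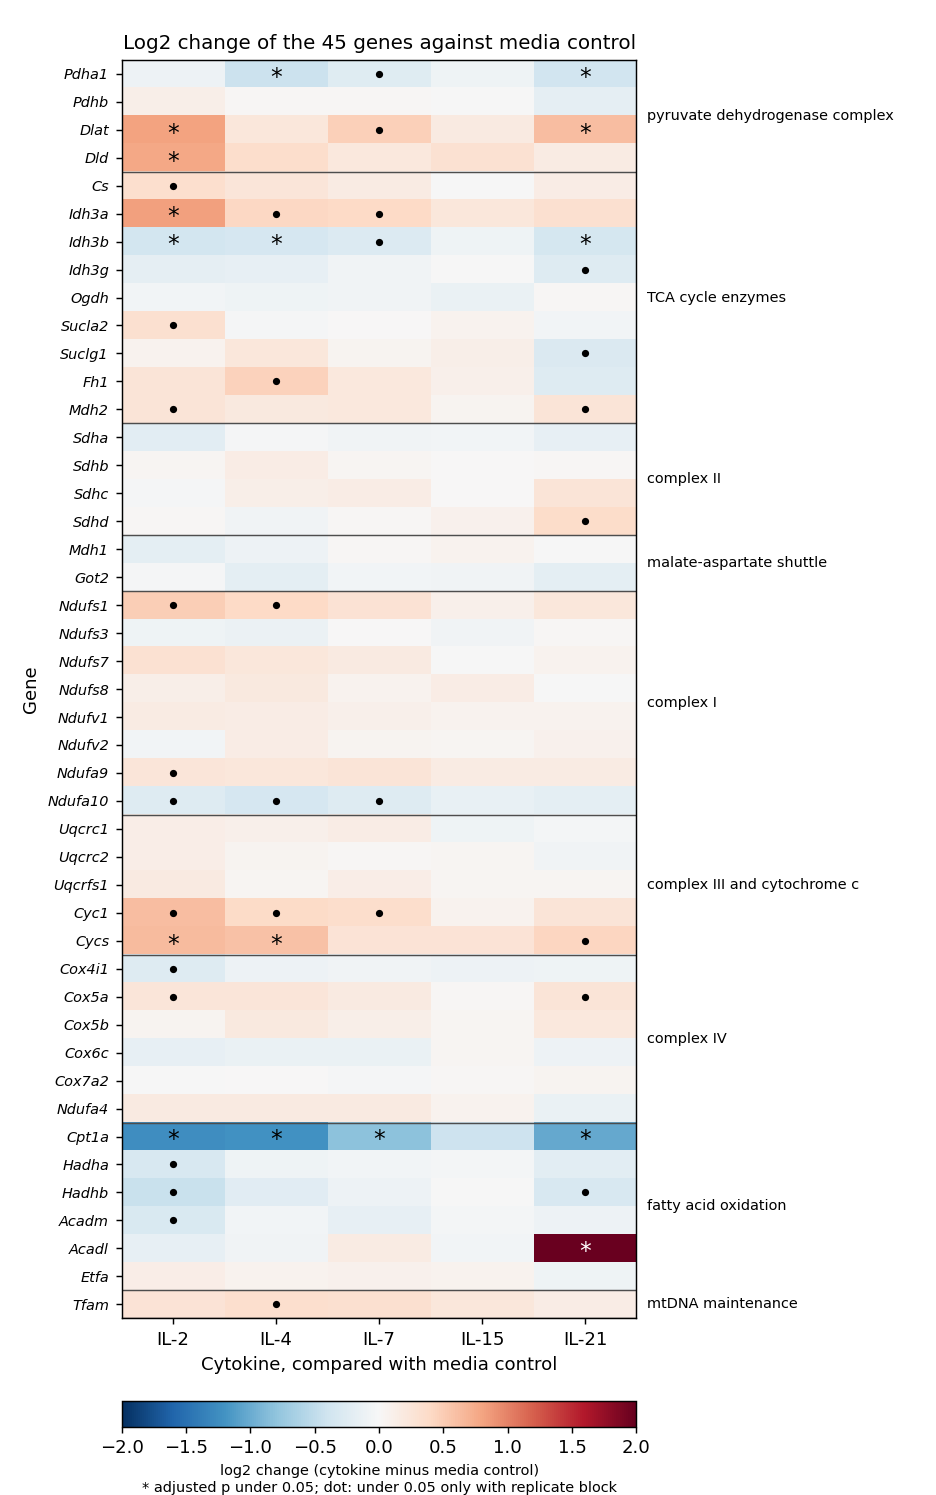
Log2 change of each of the 45 genes (rows, by role) with each cytokine (columns, cytokine minus media control, means of 3 arrays each). Stars mark an adjusted p under 0.05 and dots mark genes that pass only with the replicate block. Most cells lie near 0, Cpt1a is blue in every column, and Acadl is dark red under IL-21 alone.

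The pyruvate dehydrogenase complex has 4 genes here, of which 2 rose under IL-2, 1 fell under IL-4, and 1 rose and 1 fell under IL-21. Dlat, the acetyltransferase core of the complex, stood at 9.63, 9.46 and 9.29 on the log2 scale under IL-2 (replicates 1, 2 and 3), against 8.84, 8.51 and 8.63 in media control. Under IL-21 the levels were 9.40, 9.18 and 9.27, and neither group overlapped media control. The change of Dlat was 0.80 under IL-2 (SE 0.14, adjusted p = 0.00077) and 0.62 under IL-21 (SE 0.14, adjusted p = 0.00998). Levels of Dlat under IL-7 were 9.27, 9.12 and 9.05, all above media control, and the change of 0.48 passed only with the block (adjusted p = 0.0898 without it and 0.00456 with it). Under IL-4 (9.06, 8.89 and 8.70) and IL-15 (8.89, 8.68 and 8.97), Dlat overlapped media control. The IL-21 call was lost without replicate 2 of media control (adjusted p = 0.0589) or replicate 1 of IL-21 (adjusted p = 0.0586). The IL-2 call held whichever single array was left out, but was lost without all arrays of replicate 2 (adjusted p = 0.0569). The Dlat probe set is of a class (x_at) that can bind related transcripts. Another Dlat probe set changed by 0.80 under IL-2 and 0.45 under IL-21, and a dimmer one by 0.43 and 0.16. With the mean of the Dlat probe sets the IL-2 call held (0.68, adjusted p = 0.0028) and the IL-21 call did not (0.41, adjusted p = 0.0928).

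Dld, the dihydrolipoamide dehydrogenase that this complex shares with the alpha-ketoglutarate dehydrogenase complex, stood at 9.94, 9.86 and 10.03 under IL-2, against 9.58, 9.28 and 8.66 in media control. All 3 IL-2 arrays lay above all control arrays, and replicate 3 of media control was the lowest of the 18. The change was 0.77 (SE 0.19, adjusted p = 0.00981), made of pair differences of 0.35, 0.58 and 1.37. Without the 3 arrays on the lower scale it did not pass (adjusted p = 0.0773), nor with the mean of its probe set and one under background (0.35, adjusted p = 0.0583). The Dld call was also lost without all arrays of replicate 2 or of replicate 3 (adjusted p up to 0.102). Pdha1, the alpha subunit of the dehydrogenase component, stood at 10.70, 10.65 and 10.92 under IL-4 and at 10.81, 10.75 and 10.83 under IL-21, against 11.13, 11.12 and 11.30 in media control. Both groups lay wholly below media control, with changes of -0.43 under IL-4 (SE 0.11, adjusted p = 0.0201) and -0.39 under IL-21 (SE 0.11, adjusted p = 0.0429). With the other cytokines Pdha1 stood at 11.01, 11.03 and 11.20 (IL-2), 10.93, 10.93 and 10.99 (IL-7) and 11.02, 11.05 and 11.24 (IL-15). Its IL-7 arrays also lay wholly below media control, with a change of -0.24 that did not pass without the block. A further Pdha1 probe set changed by -0.14 under IL-4, -0.06 under IL-21 and 0.03 under IL-7. Under IL-2 it changed by 0.29, where the probe set used changed by -0.11. With the mean of both, the changes of -0.28 under IL-4 and -0.22 under IL-21 did not pass (adjusted p = 0.299 and 0.522). On the values as deposited Pdha1 turned direction, with changes of 0.079 under IL-4 and 0.11 under IL-21. The IL-21 call of Pdha1 was lost on leaving out any of 13 single arrays (adjusted p 0.053 to 0.167), and the IL-4 call without replicate 3 of media control (0.0849) or replicate 1 (0.0818) or 2 (0.0914) of IL-4. Pdhb, the beta subunit, changed by 0.11 under IL-2 and -0.19 under IL-21 and passed in no comparison.

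Of the 9 TCA cycle enzyme genes, 1 rose and 1 fell under IL-2, 1 fell under IL-4 and 1 fell under IL-21. All of these calls were on subunits of the NAD-dependent isocitrate dehydrogenase. Idh3a, its catalytic subunit, stood at 11.69, 11.42 and 11.91 under IL-2, against 11.02, 10.52 and 11.01 in media control. The groups did not overlap, and the change was 0.82 (SE 0.22, adjusted p = 0.0175). Dimmer Idh3a probe sets above background changed by 0.58 and 0.27 under IL-2, and one under background by 0.37. Idh3a stood at 11.32, 11.14 and 11.32 under IL-4, 11.32, 11.04 and 11.40 under IL-7, 11.06, 10.60 and 11.57 under IL-15 and 11.20, 10.93 and 11.39 under IL-21. Its changes under IL-4 (0.41) and IL-7 (0.40) passed only with the block (adjusted p = 0.0187 and 0.0306, against 0.33 and 0.441 without it). The IL-2 call was lost without replicate 2 of media control (adjusted p = 0.103) or replicate 1 (0.0557) or 3 (0.0699) of IL-2. It was also lost without all arrays of replicate 1 (adjusted p = 0.209).

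Idh3b, a supporting subunit of the same enzyme, went the other way. It stood at 11.41, 11.47 and 11.54 under IL-2, 11.48, 11.52 and 11.53 under IL-4, and 11.46, 11.48 and 11.54 under IL-21, against 11.84, 11.95 and 11.74 in media control. Each of these groups lay wholly below media control, with changes of -0.37 (IL-2, SE 0.10, adjusted p = 0.0167), -0.34 (IL-4, adjusted p = 0.046) and -0.35 (IL-21, adjusted p = 0.0435). Under IL-7 (11.54, 11.64 and 11.55) the change of -0.27 passed only with the block (adjusted p = 0.0374, against 0.207 without it), and under IL-15 (11.70, 11.91 and 11.65) it was -0.09. A further probe set near the same level changed by -0.31 under IL-2, -0.29 under IL-4 and -0.28 under IL-21, and one under background by 0.23, 0.25 and 0.13. With the mean of all 3 no Idh3b call held (adjusted p = 0.789 under IL-2, 0.755 under IL-4 and 0.724 under IL-21). On the values as deposited Idh3b turned direction under IL-4 (0.16) and IL-21 (0.14) but not under IL-2 (-0.27). Replicate 3 of IL-2 and of media control was deposited on the lower scale, and no array of IL-4 or IL-21 was. The Idh3b calls are narrow: leaving out a single array ended the call for 15 of the 18 arrays under IL-4 (adjusted p 0.0507 to 0.193) and for 14 under IL-21 (0.0517 to 0.185). Under IL-2 it was lost without replicate 2 of media control (0.0892) or replicate 1 of IL-2 (0.0733).

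The remaining TCA cycle genes passed in no comparison with media control. Cs, citrate synthase, changed by 0.34 under IL-2 (95% interval 0.06 to 0.62) and passed with the block (adjusted p = 0.0195), as did Mdh2, mitochondrial malate dehydrogenase (0.26, adjusted p = 0.0187), and Sucla2, a succinyl-CoA ligase subunit (0.32, adjusted p = 0.0356). Fh1, fumarase, which turns fumarate into malate, stood at 11.84, 11.69 and 11.91 under IL-4 and 11.12, 10.78 and 11.37 under IL-21, against 11.46, 11.003 and 11.59 in media control. Fh1 under IL-4 lay wholly above both, and its change of 0.46 against media control passed only with the block (adjusted p = 0.00443, against 0.155 without it). Under IL-21 the block also called Mdh2 higher (0.25, adjusted p = 0.0329) and Suclg1 (-0.29, adjusted p = 0.0351) and Idh3g (-0.26, adjusted p = 0.043) lower. Ogdh, the dehydrogenase subunit of the alpha-ketoglutarate dehydrogenase complex, changed by between -0.13 (IL-15) and 0.03 (IL-21).

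The 4 subunits of complex II, succinate dehydrogenase, passed in no comparison, with changes from -0.20 (Sdha, IL-2) to 0.36 (Sdhd, IL-21). Sdhd, a membrane anchor, passed with the block under IL-21 (adjusted p = 0.0196). Sdhc, the other anchor, had the highest F of the 4 and stood at 9.86, 9.88 and 9.47 under IL-2, 9.999, 9.97 and 9.69 under IL-4, 10.03, 9.995 and 9.70 under IL-7, 9.98, 9.81 and 9.53 under IL-15 and 10.13, 10.03 and 9.91 under IL-21, against 10.004, 9.65 and 9.64 in media control. All of its groups overlapped media control. Sdhb, the iron-sulfur subunit, stayed within 0.14 of media control with each cytokine. In the malate-aspartate shuttle, which carries reducing equivalents into mitochondria, Got2 stood at 11.84, 11.96 and 11.86 under IL-2, 11.71, 11.82 and 11.62 under IL-4, 11.82, 11.85 and 11.90 under IL-7, 11.82, 11.84 and 11.87 under IL-15 and 11.71, 11.81 and 11.64 under IL-21, against 11.81, 11.82 and 12.11 in media control. Neither Got2 nor Mdh1, whose changes ran from -0.19 (IL-2) to 0.08 (IL-15), passed in any comparison.

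None of the 8 complex I genes passed against media control without the block. Their median change was 0.14 under IL-2, 0.17 under IL-4, 0.08 under IL-7, 0.06 under IL-15 and 0.07 under IL-21. Ndufs1, the large iron-sulfur subunit, stood at 11.004, 10.75 and 11.18 under IL-2 and 10.80, 10.68 and 11.18 under IL-4, against 10.64, 10.28 and 10.56 in media control. Both groups lay above media control, and the changes of 0.49 and 0.39 passed only with the block (adjusted p = 0.0013 and 0.00839, against 0.153 and 0.325 without it). Ndufa10, an accessory subunit, went down instead, by -0.26 under IL-2, -0.33 under IL-4 and -0.25 under IL-7, and passed only with the block (adjusted p = 0.0184, 0.00609 and 0.0419). Ndufa9, another accessory subunit, passed with the block under IL-2 (0.24, adjusted p = 0.0383). Ndufs7, a core subunit with the highest F of the 8, stood at 11.32, 11.49 and 11.30 under IL-2, 11.23, 11.43 and 11.21 under IL-4, 11.24, 11.22 and 11.27 under IL-7, 11.09, 10.85 and 11.23 under IL-15 and 11.14, 10.97 and 11.31 under IL-21, against 11.09, 10.85 and 11.26 in media control. Its IL-2 arrays all lay above media control, by 0.30 (adjusted p = 0.164). Ndufs3, Ndufs8, Ndufv1 and Ndufv2 stayed within 0.19 of media control with each cytokine.

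Cycs, the soluble electron carrier between complexes III and IV, rose under IL-2 and IL-4. It stood at 13.11, 13.06 and 13.18 under IL-2 and at 13.22, 12.88 and 13.09 under IL-4, against 12.73, 12.35 and 12.35 in media control. Both groups lay wholly above media control, with changes of 0.64 (SE 0.17, adjusted p = 0.016) and 0.59 (SE 0.17, adjusted p = 0.0413). The levels were 12.99, 12.50 and 12.74 under IL-7, 12.76, 12.46 and 13.03 under IL-15 and 12.92, 12.73 and 13.09 under IL-21, all of which overlapped media control, and IL-21 (0.44) passed only with the block (adjusted p = 0.0175, against 0.166 without it). A further bright Cycs probe set changed by 0.78 under IL-2 and 0.68 under IL-4, and with the mean of its 4 probe sets, 1 of them under background, the changes of 0.49 and 0.44 did not pass (adjusted p = 0.122 and 0.228). Without the 3 arrays on the lower scale the Cycs changes did not pass (adjusted p = 0.0845 under IL-2 and 0.0904 under IL-4). The IL-2 call was also lost without replicate 2 (0.0755) or 3 (0.0613) of media control, and the IL-4 call on leaving out any of 10 single arrays (0.0509 to 0.16). Both calls were lost whichever whole replicate number was left out (adjusted p up to 0.0988 under IL-2 and 0.217 under IL-4).

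Cyc1, the cytochrome of complex III that donates to Cycs, stood at 11.82, 11.85 and 12.18 under IL-2, against 11.31, 10.98 and 11.69 in media control. Its IL-2 arrays lay above all control arrays, and the change of 0.62 passed only with the block (adjusted p = 0.000218, against 0.0863 without it), as did 0.38 under IL-4 (0.0113) and 0.35 under IL-7 (0.0307). The core and iron-sulfur subunits Uqcrc1, Uqcrc2 and Uqcrfs1 stayed between -0.09 and 0.18 and passed in no comparison. None of the 6 complex IV genes passed without the block, and their changes ran from -0.25 (Cox4i1, IL-2) to 0.26 (Cox5a, IL-21). Cox5a stood at 13.63, 13.60 and 13.61 under IL-2, 13.58, 13.66 and 13.58 under IL-4, 13.56, 13.52 and 13.54 under IL-7, 13.49, 13.21 and 13.44 under IL-15 and 13.61, 13.64 and 13.65 under IL-21, against 13.42, 13.19 and 13.49 in media control. The IL-2, IL-4, IL-7 and IL-21 arrays of Cox5a lay above all control arrays, and IL-2 (0.25, adjusted p = 0.0453) and IL-21 (0.26, adjusted p = 0.0447) passed with the block. Cox4i1 passed with the block as lower under IL-2 (adjusted p = 0.0174). Cox7a2 stayed within 0.05 of media control with each cytokine, and Cox5b, Cox6c and Ndufa4, which is counted with complex IV here, changed by -0.17 to 0.20.

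The 6 fatty acid oxidation genes held the largest changes of the 45 in both directions. Acadl, which catalyses the opening step of beta-oxidation on long chains, stood at 13.48, 13.60 and 13.16 under IL-21, against 11.64, 11.58 and 11.07 in media control. All 3 IL-21 arrays lay above the other 15 arrays of the series. The change was 1.98 (95% interval 1.45 to 2.52, adjusted p = 0.000146), with pair differences of 1.83, 2.02 and 2.10. With the other cytokines Acadl stood at 11.34, 11.69 and 10.77 (IL-2), 11.42, 11.57 and 11.11 (IL-4), 11.65, 11.77 and 11.38 (IL-7) and 11.66, 11.62 and 10.87 (IL-15). These overlapped media control, with changes of -0.16, -0.07, 0.17 and -0.05. The call held whichever single array (highest adjusted p = 0.00132) or replicate number (highest adjusted p = 0.0355) was left out. On the values as deposited the change was 2.43, with an adjusted p of 0.143 without the block and 0.000107 with it. A further Acadl probe set, below the background level, changed by 0.82 under IL-21. The NK cell list also lay above media control under IL-21, at levels under background, and its part in the Acadl level was not tested.

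Cpt1a was lower with each cytokine, and the fall passed with all but IL-15. It stood at 8.62, 8.55 and 8.55 under IL-2, 8.76, 8.64 and 8.40 under IL-4, 9.03, 8.95 and 8.98 under IL-7, 9.44, 9.72 and 9.03 under IL-15 and 8.82, 8.90 and 8.65 under IL-21, against 9.78, 9.94 and 9.72 in media control. Every cytokine array lay below the lowest control array, with replicate 2 of IL-15 the closest to it. The changes were -1.24 (IL-2, adjusted p = 5.9e-05), -1.22 (IL-4, adjusted p = 0.000118), -0.83 (IL-7, adjusted p = 0.0133), -0.42 (IL-15, adjusted p = 1) and -1.03 (IL-21, adjusted p = 0.000493), each with an SE of 0.15. In linear terms the level under IL-2 was 0.423 times that of media control. The IL-2, IL-4 and IL-21 calls held whichever single array was left out. The IL-7 call was lost without replicate 2 of media control (adjusted p = 0.074) or replicate 1 (0.0598) or 2 (0.0653) of IL-7. With a whole replicate number left out, the IL-2 and IL-4 calls held. The IL-21 call was then lost without replicate 1 (adjusted p = 0.0727), and the IL-7 call without replicate 1 or 2. Another Cpt1a probe set above background changed by -0.73 under IL-2, -0.48 under IL-4, -0.27 under IL-7 and -0.55 under IL-21. With the mean of its 3 probe sets the changes were -0.86, -0.66, -0.41 and -0.63 in these groups and none passed (adjusted p = 0.175, 0.375, 0.695 and 0.481). The B cell list was also lower than in media control in these 4 groups, by the ranges given above, and its part in the Cpt1a levels was not tested.

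Hadha and Hadhb, the alpha and beta subunits of the trifunctional protein that carries out the later steps of beta-oxidation, changed by -0.32 and -0.45 under IL-2. Hadhb stood at 10.64, 10.48 and 11.04 under IL-2, against 11.09, 11.11 and 11.31 in media control, and the groups did not overlap. Both passed only with the block (adjusted p = 0.00881 and 0.000949, against 0.0693 and 0.076 without it), as did Acadm, medium-chain acyl-CoA dehydrogenase, under IL-2 (-0.30, adjusted p = 0.00571). Under IL-21, Hadhb passed with the block at -0.33 (adjusted p = 0.0152). Another Hadhb probe set above background changed by only -0.06 under IL-2 and -0.05 under IL-21, and one under background by -0.39 and -0.16. Etfa, which takes electrons from the acyl-CoA dehydrogenases, changed by between -0.09 and 0.13. Tfam, which packages and transcribes mitochondrial DNA, stood at 10.44, 10.55 and 10.06 under IL-2, 10.58, 10.41 and 10.23 under IL-4, 10.47, 10.49 and 10.24 under IL-7, 10.36, 10.30 and 10.24 under IL-15 and 10.20, 10.28 and 10.19 under IL-21, against 10.34, 10.18 and 9.71 in media control. All of its groups overlapped media control, and the change of 0.33 under IL-4 passed only with the block (adjusted p = 0.0354).

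**Figure D2:**
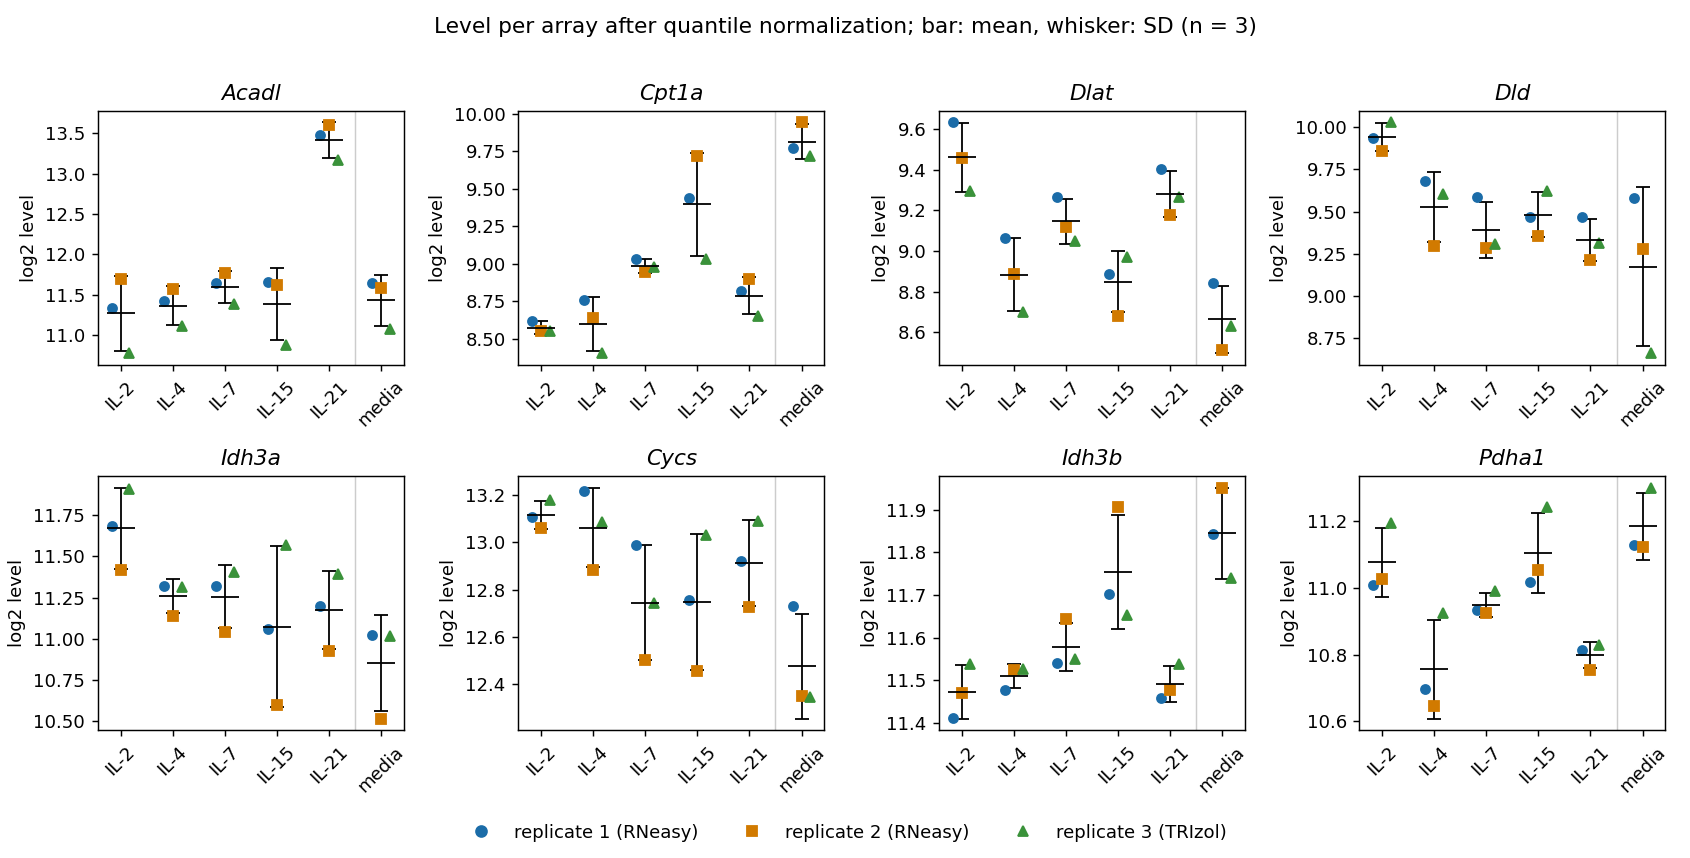
Log2 level on each array for the 8 genes called against media control, the 5 cytokine groups left of media control. Points are arrays by replicate number, the bar is the mean and the whisker the SD (n = 3). Acadl under IL-21 (13.16 to 13.60) stands clear of the other groups, while for Cpt1a media control (9.72 to 9.94) is the highest group.

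The promoters of Acadl, Cpt1a, Cycs and Dlat are shown as examples of genes called above, Acadl under IL-21, Cpt1a under most cytokines, and Cycs and Dlat under IL-2. Idh3a was not matched to a promoter. They run 250 bases before to 50 after the RefSeq start (GRCm38.p6), and capitals mark matches to the motifs searched. They lie at chr1:66863260-66863559 (minus strand) for Acadl, chr19:3323051-3323350 (plus strand) for Cpt1a, chr6:50566520-50566819 (minus strand) for Cycs and chr9:50659731-50660030 (minus strand) for Dlat.
Acadl: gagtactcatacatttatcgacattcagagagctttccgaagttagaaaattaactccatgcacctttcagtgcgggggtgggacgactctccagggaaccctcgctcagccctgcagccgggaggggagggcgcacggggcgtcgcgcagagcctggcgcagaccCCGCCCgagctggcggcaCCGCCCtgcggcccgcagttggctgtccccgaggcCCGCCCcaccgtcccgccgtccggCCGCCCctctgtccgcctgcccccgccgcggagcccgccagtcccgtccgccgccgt
Cpt1a: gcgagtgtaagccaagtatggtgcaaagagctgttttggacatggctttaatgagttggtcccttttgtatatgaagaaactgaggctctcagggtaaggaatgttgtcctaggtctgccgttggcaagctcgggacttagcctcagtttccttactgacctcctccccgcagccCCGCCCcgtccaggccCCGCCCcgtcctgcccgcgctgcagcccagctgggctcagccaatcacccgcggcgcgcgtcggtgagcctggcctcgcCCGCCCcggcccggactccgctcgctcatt
Cycs: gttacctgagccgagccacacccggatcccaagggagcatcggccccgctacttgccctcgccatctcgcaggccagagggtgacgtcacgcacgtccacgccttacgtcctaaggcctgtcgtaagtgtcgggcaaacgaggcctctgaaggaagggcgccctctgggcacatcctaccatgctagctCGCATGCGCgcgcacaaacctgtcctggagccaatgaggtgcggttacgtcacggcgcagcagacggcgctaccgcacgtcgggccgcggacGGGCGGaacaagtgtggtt
Dlat: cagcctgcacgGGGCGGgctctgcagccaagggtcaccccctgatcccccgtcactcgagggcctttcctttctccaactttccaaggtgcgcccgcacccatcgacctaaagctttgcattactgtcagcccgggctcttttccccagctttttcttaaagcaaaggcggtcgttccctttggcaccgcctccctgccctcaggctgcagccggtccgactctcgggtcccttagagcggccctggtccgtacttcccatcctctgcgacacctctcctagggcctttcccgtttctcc
In the Cycs promoter the letters GCGCANGCG of NRF1, a regulator of respiratory chain genes, occur on the reverse strand at position -61 from the start. GGGCGG, the GC box of SP1, occurs on either strand 4 times in Acadl, 3 times in Cpt1a and 1 time in each of the other promoters shown. None of these matches overlap. Of the 45 genes, 38 matched a promoter in the RefSeq table. On either strand, the NRF1 letters were found in 8 of these 38 promoters (21.1%, against 11.4% of the 14453 promoters of genes tested). CCGGAAG, bound by GABPA and other ETS factors, was found in 7 (18.4%, against 15%), and AANATGGCG of YY1 in 4 (10.5%, against 4.24%). TNAAGGTCA of ESRRA was found in 1 (2.63%, against 1.2%), the GC box in 21 (55.3%, against 57.3%) and the E-box CACGTG in 2 (5.26%, against 10.2%). Among the genes called against media control, Cycs and Dld hold the NRF1 letters and Idh3b the ETS letters.

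Comparison of the cytokines with each other asked where the 45 genes differed between cytokines. The control arrays are not part of these differences, but they entered the normalization and the shared estimate of the spread. Acadl was lower under IL-2 than under IL-21 by a change of -2.15 (adjusted p = 0.000101), and likewise under IL-4 (-2.05, adjusted p = 0.000125), IL-7 (-1.82, adjusted p = 0.000674) and IL-15 (-2.03, adjusted p = 0.000209), each set against IL-21. These 4 calls held whichever single array was left out. With a whole replicate number left out, only the IL-2 comparison held each time (highest adjusted p = 0.0447). The IL-4 (0.0507) and IL-15 (0.0578) comparisons were lost without replicate 1, and the IL-7 comparison without replicate 1 or 2 (up to 0.133). Cpt1a was lower under IL-2 than under IL-15 (-0.82, adjusted p = 0.00273), lower under IL-4 than under IL-15 (-0.80, adjusted p = 0.00641), and higher under IL-15 than under IL-21 (0.61, adjusted p = 0.0328). The last of these was lost without replicate 1 (0.112) or 2 (0.179) of IL-15 or replicate 1 (0.1), 2 (0.059) or 3 (0.133) of IL-21. The Cpt1a calls of IL-2 and IL-4 against IL-15 held whichever single array was left out. All of these Cpt1a calls were lost without all arrays of replicate 1 or of replicate 2 (adjusted p up to 0.164, 0.315 and 0.603). Dlat was higher under IL-2 than under IL-4 (0.58, adjusted p = 0.0364) and than under IL-15 (0.61, adjusted p = 0.00977). The call against IL-4 was lost on leaving out any of 6 single arrays (0.0519 to 0.18), and that against IL-15 without replicate 1 of IL-2 (0.0626) or replicate 2 of IL-15 (0.0696). Fh1 was higher under IL-4 than under IL-21 (0.72, adjusted p = 0.0408), a call lost on leaving out any of 12 single arrays (0.0504 to 0.228).

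Counted over the 45 genes, IL-2 differed from IL-4 in 1 (2.07% of all genes), from IL-7 in 0 (1.42%), from IL-15 in 2 (8.6%) and from IL-21 in 1 (6.58%). IL-4 differed from IL-7 in 0 (1.34%), from IL-15 in 1 (3.64%) and from IL-21 in 2 (3.81%). IL-7 differed from IL-15 in 0 (0.011%) and from IL-21 in 1 (2.24%), and IL-15 from IL-21 in 2 (3.54%). An unadjusted p under 0.05 was found in 6 of the 45 genes for IL-2 against IL-7 (11% of all genes), 1 for IL-4 against IL-7 (6.91%) and 2 for IL-7 against IL-15 (4.44%). With the block, IL-2 differed from IL-4 in 3 of the 45 genes (10.6% of all genes), from IL-7 in 5 (11.1%), from IL-15 in 11 (22.4%) and from IL-21 in 11 (21.4%). In that fit IL-4 differed from IL-7 in 0 (5.18%), from IL-15 in 3 (14.1%) and from IL-21 in 5 (11.7%), IL-7 from IL-15 in 0 (0.335%) and from IL-21 in 3 (8.89%), and IL-15 from IL-21 in 8 (12.6%). Tested for any difference among the 6 groups (moderated F), 4 of 45 genes passed, beside 13.9% of all genes, and these were Acadl (adjusted p = 0.000147), Cpt1a (0.000147), Dlat (0.00408) and Pdha1 (0.043). With the block 17 passed, beside 35.7% of all genes.

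A p that missed the threshold left room for changes of some size. Of the genes not called, the 95% interval of the change lay within -1 and 1 on the log2 scale in 38 of 39 under IL-2, 41 of 41 under IL-4, 44 of 44 under IL-7, 45 of 45 under IL-15 and 40 of 40 under IL-21. It lay within -0.5 and 0.5 in 16 of 39 under IL-2 and 30 of 45 under IL-15.

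Genes of neighbouring processes were counted from lists of genes outside the 45. Of all genes, 7.83% rose and 8% fell under IL-2 (15.5% and 15.1% with the block). Under IL-4, 3.98% rose and 5.1% fell (12.9% and 12.9% with the block). The shares were 0.934% and 0.747% under IL-7 (8.34% and 8.01%), and 3.39% and 3.29% under IL-21 (10.6% and 10.5%). The lists were not tested against these shares. Of 25 other complex I subunits 2 rose and 1 fell under IL-2 (6 and 2 with the block), and of 16 ATP synthase subunits 1 rose and 1 fell (4 and 3 with the block). Ndufab1, the mitochondrial acyl carrier protein that is part of complex I, changed by 0.77 under IL-2 (adjusted p = 0.0035), and Ndufv3 (0.46) and Ndufb2 (0.54) rose under IL-4. Atp5b, the catalytic beta subunit of ATP synthase, changed by 0.40 under IL-2 (adjusted p = 0.039) and Atp5g2, of its membrane ring, by -0.35 (adjusted p = 0.02). Among 12 other subunits of complexes III and IV, 1 rose and 1 fell under IL-2 (3 and 4 with the block). Cox7a2l, a supercomplex assembly subunit, fell under IL-2 (-0.94) and IL-4 (-0.69). Cox7a1 rose under IL-2, IL-4, IL-7 and IL-21, by 0.87 to 1.48, at levels under background.

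Of 21 other TCA cycle and pyruvate enzymes, 10 rose and 0 fell under IL-2 (7.83% and 8% of all genes), and 4 rose under IL-4 (3.98%). Under IL-7 3 rose (0.934%), and under IL-21 2 rose and 1 fell (3.39% and 3.29%). With the block, 12 rose and 3 fell under IL-2, 9 and 3 under IL-4, 10 and 1 under IL-7, and 7 and 3 under IL-21. Got1, the cytosolic aspartate aminotransferase, changed by 0.97 under IL-2 (adjusted p = 6.6e-05), and Idh1, the cytosolic NADP-dependent isocitrate dehydrogenase, by 1.58 under IL-21 (adjusted p = 0.00038). Pdp2, a phosphatase that activates pyruvate dehydrogenase, rose by 0.65 to 0.76 under IL-2, IL-4, IL-7 and IL-21. Of 27 import genes, 10 rose and 0 fell under IL-2 (17 and 0 with the block), among them the chaperones Hspa9 (1.60) and Hspd1 (1.17) and the outer membrane pore Tomm40 (1.04). Of 76 mitochondrial ribosomal proteins 13 rose and 1 fell under IL-2 (44 and 5 with the block), and of 32 assembly factors 8 rose and 2 fell (17 and 4 with the block), Cox11 (0.74) and Ecsit (0.68) among those that rose and Cox20 (-0.45) among those that fell. With the block, import genes that rose numbered 17 under IL-4, 14 under IL-7 and 10 under IL-21, against 1, 0 and 0 without it. In the ribosomal list Mrpl17 (0.79) and Mrpl19 (0.83) rose and Mrpl58 (-0.73) fell.

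Of 22 regulators of mitochondrial biogenesis, 5 rose and 1 fell under IL-2 (7 and 1 with the block). Pprc1, a coactivator of the PGC-1 family, rose by 1.71 under IL-2 and 1.11 under IL-4, and Nrf1, a transcription factor of respiratory chain genes, by 1.13 and 0.76, while Polg2, a subunit of the mitochondrial DNA polymerase, fell by 0.72 under IL-2 and 0.77 under IL-21. Among 13 genes of dynamics and mitophagy 4 rose and 2 fell under IL-2 (5 and 2 with the block). Pink1, the kinase that marks damaged mitochondria, fell by 1.80 under IL-2 and 1.09 under IL-4, Bnip3, a mitophagy receptor, rose by 2.24 and 2.16, and Mtfp1, a fission protein, by 1.34 and 0.69. Among 19 other fatty acid oxidation genes 2 rose and 3 fell under IL-2 (4 and 5 with the block). Slc25a20, the carnitine carrier that acts after Cpt1a, fell by 0.86 under IL-2 and 0.63 under IL-4, Lipa, the lysosomal acid lipase, fell by 1.29 and 1.37, and Acsl3, an acyl-CoA synthetase, rose by 1.76 and 1.37. Mtfp1 and Acsl3 lay under background in media control, so the size of their rise is not exact.

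Of 19 glycolysis genes, 10 rose under IL-2, 9 under IL-4, 6 under IL-7, 0 under IL-15 and 7 under IL-21, and 0 fell. With the block 16, 16, 15, 0 and 15 rose in the same order, and 0 fell. The shares of all genes that rose were 7.83%, 3.98%, 0.934%, 0% and 3.39% without the block. With it they were 15.5%, 12.9%, 8.34%, 0% and 10.6%. Their median change was 0.78 under IL-2, 0.87 under IL-4, 0.64 under IL-7, 0.37 under IL-15 and 0.74 under IL-21. Hexokinase Hk2 changed by 2.82 under IL-2 (SE 0.28, adjusted p = 1.4e-05) and the glucose transporter Slc2a1 by 1.83 (SE 0.29, adjusted p = 0.00052). No gene of any list passed under IL-15 with or without the block, where 390 of all genes had an unadjusted p under 0.05. The difference between glycolysis genes and the 45 was not tested.

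**Figure D3:**
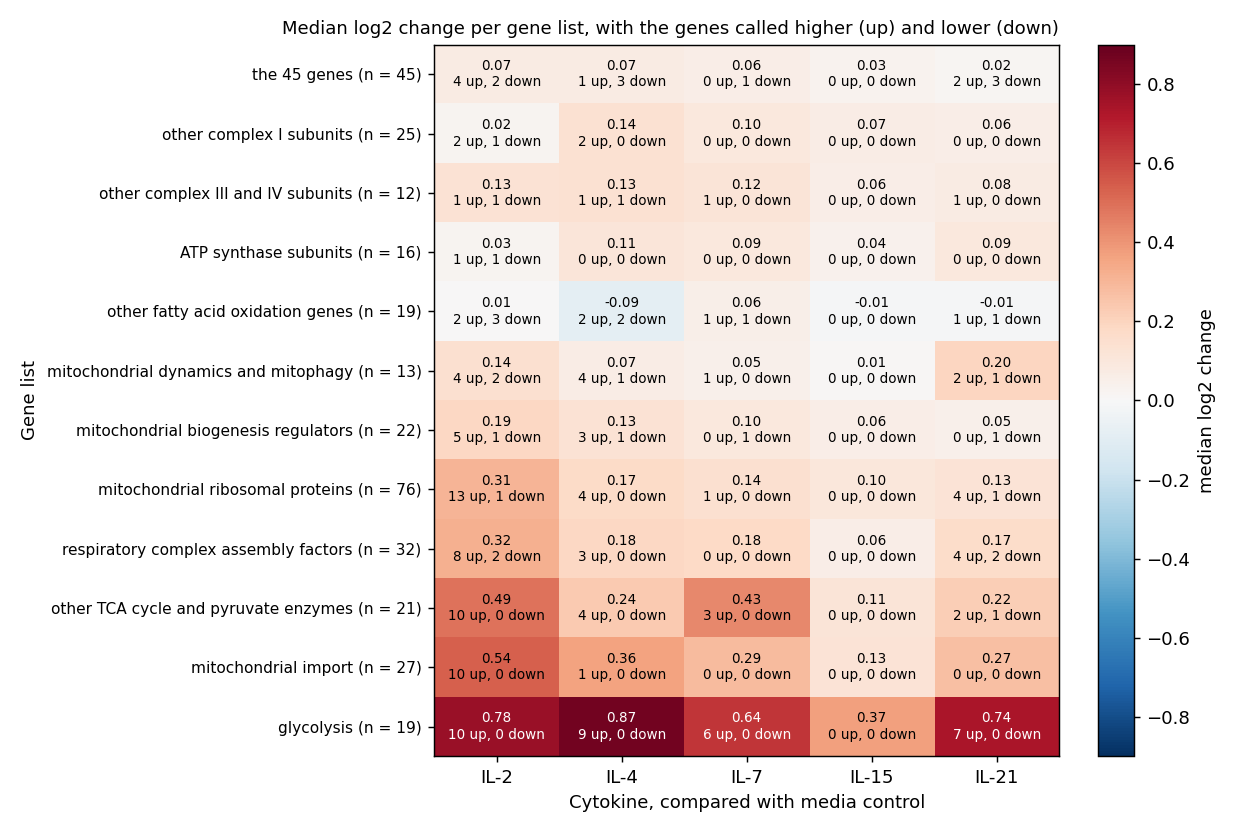
Median log2 change of each gene list (rows) with each cytokine (columns, cytokine minus media control), with the number of genes called higher (up) and lower (down) without the replicate block. The 45 genes have medians of 0.02 to 0.07, and glycolysis medians of 0.37 to 0.87.

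The median share of the sum of squares over the 18 arrays was 38.2% between groups and 42.3% between replicate numbers, against 47.7% and 32.5% over the 8569 genes above background and 31.8% and 31.1% over all 18194 genes. The replicate share was the larger in 24 of the 45 genes, in 3466 of the genes above background and in 8584 of all genes. The range of the group means had a median of 0.298 in the 45 genes, against 0.507 in genes above background and 0.379 in all genes. Mdh1, cytosolic malate dehydrogenase, stood 0.80 higher in replicate 3 than in replicates 1 and 2, Uqcrc2 0.58 higher, and Ogdh differed by -0.49, with no overlap between the replicate 3 arrays and the others. By group, Mdh1 ranged from 11.70 to 12.89 under IL-2 and from 11.96 to 12.88 in media control. At the other end, the group share was 90.7% for Cpt1a and 88.6% for Acadl. Of the 18 arrays, replicate 2 of IL-15 (11.43) and replicate 2 of media control (11.41) had the lowest mean level over the 45 genes, in a range up to 11.69.

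**Figure D4:**
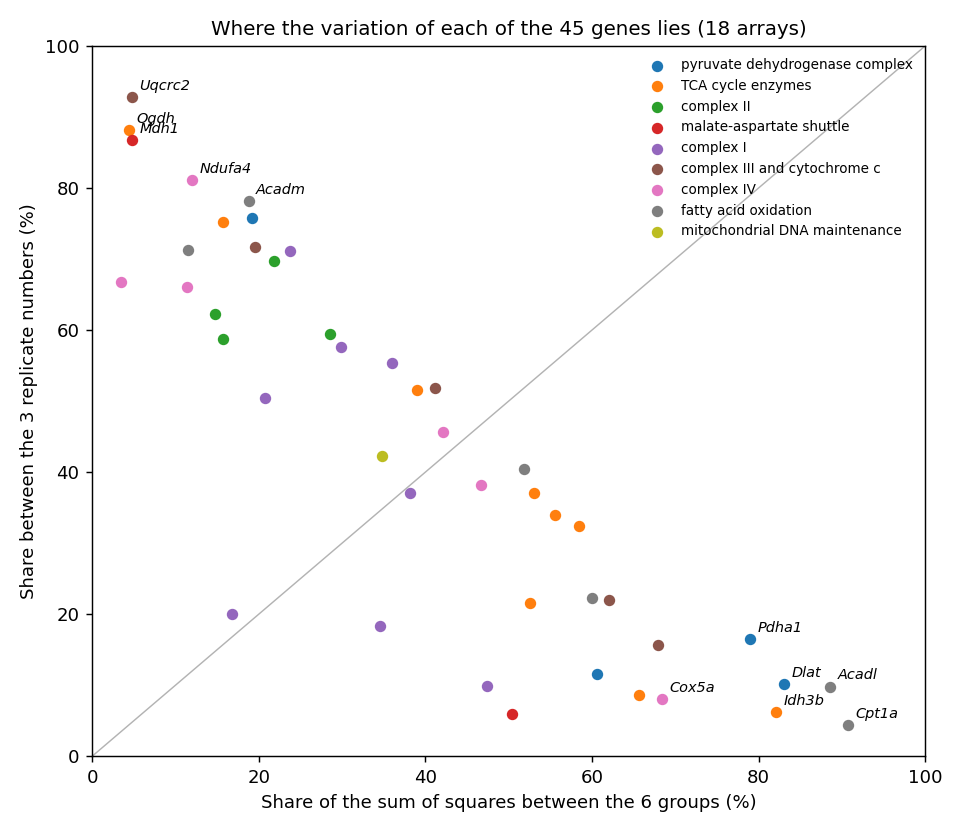
Share of each gene's sum of squares that lies between the 6 groups (x axis, %) and between the 3 replicate numbers (y axis, %), 1 point per gene, coloured by role. Cpt1a, Acadl, Dlat, Idh3b and Pdha1 sit at the lower right, and Uqcrc2, Ogdh and Mdh1 at the upper left.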

How the data were processed

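Transcripts of activated OT-I cells were read on 18 Affymetrix mouse arrays, 3 replicates in each of 6 groups. The authors deposited 1 log2 value for each probe set and array, made by RMA (background correction, quantile normalization, median polish) in Affymetrix Expression Console 1.1. The 18 columns as deposited nevertheless did not share 1 distribution. Their medians were 4.47 to 4.52 on 3 arrays and 5.76 to 5.84 on the other 15, and the sources used do not say why. Raw array files were not used here. The arrays have no read depth, and their number limits the precision.

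Of 45101 probe sets, 34958 have 1 gene symbol in the platform annotation, 932 have several and 9211 are not listed. The 18 columns were quantile normalized, and for each of 18194 genes the probe set with the highest mean was kept. Groups were fitted with limma 3.58.1 in R 4.3.3 (group means, no covariate, 12 residual degrees of freedom, eBayes, two-sided), with Benjamini-Hochberg adjustment over all genes of a comparison. A run of the fit on simulated data had independent noise on each array, so it does not cover the correlation by replicate number given next. In deviations from the group means, arrays of the same replicate number correlated (45 pairs, lowest 0.442, median 0.598), and the highest value among 90 pairs with unlike numbers was 0.383. Arrays that share a number are therefore related, but the main fit does not model this pairing. Unless the block is named, calls, SEs, intervals and leave-out results come from the main fit and are unpaired. Results of the second fit, which includes the block, are given for many of the counts and for some of the genes. The members and the gene lists were chosen with earlier results of these data known. All 45 members are reported. Values on each array are given for the 4 passing members with the largest change in each comparison with media control and for the member with the highest F of each role, and up to 3 passing genes by F are named in each other list. Fh1, Ndufs1, Cyc1, Hadhb and Mdh1 were added after their values were seen. Tables and figures used Python 3.11.15, pandas 2.3.3 and matplotlib 3.10.9.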

Additional observations from a re-analysis of the deposited data

How the results depend on the processing

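The counts of changed genes among the 45 depend on the settings below, and the cause of this was not tested. The number of all genes called also changes with the setting. Where no share of all genes is given for a count in this section, the count is not a result about the 45 genes. With the replicate block, 11 rose and 7 fell under IL-2, 6 rose under IL-4, 3 rose and 4 fell under IL-7, and 6 rose and 6 fell under IL-21. In that fit IL-2 differed from IL-4 in 3 (10.6% of all genes), from IL-7 in 5 (11.1%), from IL-15 in 11 (22.4%) and from IL-21 in 11 genes (21.4%), and 17 differed among the 6 groups. On the values as deposited each of these counts was 0, and the median change was 0.52 under IL-4, 0.51 under IL-7 and 0.44 under IL-21, where the median over all genes was also shifted (0.43 under IL-4). With the deposited values and the block, 1 gene, Acadl, rose under IL-21, differed between IL-2 and IL-21 and differed among the 6 groups, the other counts were 0, and the medians were the same. Pdha1 and Idh3b reversed on the deposited values, with and without the block: Pdha1 to 0.079 under IL-4 and 0.11 under IL-21, and Idh3b to 0.16 under IL-4 and 0.14 under IL-21. These changes lay below the median changes of the 45 genes on those values, 0.52 under IL-4 and 0.44 under IL-21. With median centring, 7 rose and 1 fell under IL-2, 0 rose under IL-4, 0 fell under IL-7, 1 rose and 1 fell under IL-21, 0 differed between IL-2 and IL-4, and the median change under IL-2 was 0.20. With the mean of all probe sets, 2 rose and 0 fell under IL-2, 0 rose and 0 fell under IL-4, 0 fell under IL-7 and 0 under IL-21, 0 differed between IL-2 and IL-4, 1 between IL-2 and IL-15 and 2 among the 6 groups. With genes under background left out, 4 fell under IL-2, 1 rose under IL-7 and 2 differed between IL-2 and IL-21. The share of all genes that differed among the 6 groups was 13.9% as reported, 35.7% with the block, 0.786% on the deposited values and 6.05% on them with the block, 11.6% with median centring, 12.9% with the mean of all probe sets, 29.9% with genes under background left out and 15.4% without the 3 arrays on the lower scale. Without these arrays, 0 rose under IL-4 and 2 differed between IL-2 and IL-21.

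When single arrays or 1 replicate number were left out, the genes that rose under IL-2 numbered 1 to 5 and those that fell 1 to 5. Under IL-4, 0 to 1 rose and 1 to 3 fell, under IL-7 0 rose and 0 to 1 fell, and under IL-21 1 to 3 rose and 0 to 3 fell. Between IL-2 and IL-4, 0 to 1 differed, between IL-2 and IL-7 0 to 1, between IL-2 and IL-15 0 to 10, between IL-2 and IL-21 1 to 2, and among the 6 groups 0 to 7, with 0 called without replicate 1 (2.04% of all genes) and 7 without replicate 3 (20.5%). The median change ranged from -0.02 to 0.11 under IL-2, -0.003 to 0.13 under IL-4, -0.03 to 0.12 under IL-7, -0.063 to 0.11 under IL-15 and -0.07 to 0.07 under IL-21. Of the 26 single calls over the 15 comparisons, 12 were called whichever single array was left out. With a whole replicate number left out, 6 were called without replicate 1, 8 without replicate 2 and 22 without replicate 3. All 26 were called with the block, 16 with median centring, 9 with the mean of all probe sets and 5 on the deposited values with the block. The IL-15 counts were 0 under each setting. All 45 probe sets used lie above background, while further probe sets of Acadl and Cpt1a lie below it.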
